A study of Homo sapiens with 4 samples.

Results

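The genes of prostaglandin E2 synthesis, transport, sensing and breakdown were followed in tongue cancer cells given an excess of 1 microRNA. They are 10 genes, chosen by name: the phospholipase PLA2G4A, the cyclooxygenases PTGS1 and PTGS2, the terminal synthases PTGES, PTGES2 and PTGES3, the transporter SLCO2A1, the receptors PTGER2 and PTGER4, and the degrading enzyme HPGD. Every probe set whose platform annotation gives 1 of these symbols and no other was taken, which gave 32 of the 44988 probe sets with 1 symbol and 10 of 18132 genes. SCC-9 cells, an established human line from a squamous cell carcinoma of the tongue, were used in both groups. The mimic group was transfected with a miR-585-5p mimic at 30 nM, and the control group with miR-NC, a control small RNA. RNA was collected 36 hours after transfection and read on 1 microarray per sample, with 2 arrays in each group. The design holds 1 cell line, 1 dose and 1 time, with no untransfected cells, and nothing in the labels says whether replicate arrays stem from separate cultures. The p-values therefore rest on the spread between these arrays alone, and that spread may be technical.

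Prostaglandin E2 is a lipid signal made from arachidonic acid that a phospholipase releases from membranes. Cyclooxygenases turn the acid into prostaglandin H2, and terminal synthases turn that into prostaglandin E2. PTGS1 is the form found in most tissues, while PTGS2 is the form induced by cytokines, growth factors and stress, and its messenger is short-lived because AU-rich elements in it bind decay factors. The product leaves the cell, acts through receptors of which PTGER2 and PTGER4 raise cyclic AMP, and is taken up again by SLCO2A1 and oxidized by HPGD. PTGS2 is often abundant in squamous carcinomas of the head and neck, where prostaglandin E2 is known for effects on growth, invasion and immune cells.

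A pair of sequences frames the comparison: the small RNA that was added, and the promoter of the member with the largest difference. The mature miR-585-5p is encoded on chromosome 5, at chr5:169263649-169263670 on the minus strand of GRCh38.p14, per RefSeq. Its seed, bases 2 to 8 from the 5′ end, by which a microRNA mainly finds its targets, is in capitals.
hsa-miR-585-5p: cUAGCACAcagauacgcccaga
Of the 2370 mature names in the RefSeq table, 0 others had this seed. The second sequence is the 250 bases before the annotated start of PTGS2, chr1:186680424-186680673 on the minus strand of GRCh38.p14. Capitals mark the matches to 5 motifs of factors known for this promoter, searched on both strands.
PTGS2 promoter: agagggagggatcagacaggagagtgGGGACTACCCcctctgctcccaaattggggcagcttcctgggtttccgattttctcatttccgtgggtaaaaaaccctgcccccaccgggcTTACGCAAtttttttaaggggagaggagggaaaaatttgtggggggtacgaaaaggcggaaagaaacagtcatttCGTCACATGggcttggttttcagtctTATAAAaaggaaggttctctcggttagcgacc
The first match, 224 to 215 bases before the start, is to a form of the NF-kB site, GGGNN followed directly by TNNCC, which 19.7% of 35116 promoter windows of this length also held. The next, at 133 to 126 bases before the start, is to the C/EBP form TTNNGNAA, held by 33.2% of windows. The core of a cyclic AMP response element, CGTCA, 58 to 54 bases before the start, overlaps an E-box, CANNTG, at 55 to 50 bases. These were held by 21.2% and 61.8% of windows. TATAAA stands 32 to 27 bases before the start and was held by 10.7% of windows. All 5 motifs occurred together in 11 windows of the table, or 0.0313%, and among 13 windows of the members in that of PTGS2 alone. The motifs were chosen as ones known for this promoter, so its holding all 5 was set by that choice. These counts therefore do not show that the promoter stands apart. Windows were found for 9 of the 10 genes. A match is a stretch of letters and does not show that a factor bound there in these cells.

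On the arrays, intensities were linear values after the submitters' RMA normalization, and a change is the log2 of mimic over control. Median intensities lay between 30.6 and 31.3, and 20 control probe sets with no human target reached 14.2 to 16.8 depending on the array, which is used as the level of no signal. Squamous markers were present, with 8 of 8 measured above that level on all arrays, their sums 25394 and 26074 in the mimic group and 24453 and 25053 in the control group. Of these 7 were called, 3 higher and 4 lower, among them CDH1 at -1.26, ITGB4 at -1.11 and KRT14 at 0.97. Of 6 leukocyte genes, CD68 and CD14 were above it on all arrays and PTPRC, LYZ and ITGAM on none, with sums of 187 to 219 in the mimic group and 177 to 189 in the control group, and of 4 endothelial genes 3, with sums of 104 to 121 and 142 to 152. CD14 was called higher (0.68, limma adjusted p = 6.85e-04), and the endothelial KDR (-0.73, adjusted p = 0.0015) and the fibroblast COL1A1 (-0.47, adjusted p = 0.0117) lower. Of 6 fibroblast genes 2 were above it on all arrays, with sums of 105 to 107 and 107 to 111. The cells are 1 cultured line, and the source of these signals was not tested. Poly(A) spikes, RNAs added before labelling, read 0.35 higher (log2) on the mimic arrays. Their log2 means were 6.43 and 6.39 on the mimic arrays, against 5.97 and 6.15 on the control arrays. The offset is therefore known only roughly. Setting the arrays to the spikes lowers every change by 0.35 and moves the median of all genes from -0.06 to -0.40. Changes are given on the deposited scale. With this setting any rise below 0.35 turns negative, and such turns are listed for the tested members and the genes named by rule. Limma p-values with the spikes are not comparable with the main ones. CBR3, for instance, had an adjusted p of 1.22e-06 at 1.68, but 2.68e-16 at the smaller 1.34 with the spikes. Counts of calls with the spikes share this limit.

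PTGS2 had the largest difference of the 10 genes. Its probe set 11724037_at read 20.5 and 25.1 on the mimic arrays, against 84.9 and 84.3 with miR-NC. The groups did not overlap, and both mimic arrays stood only a little above the brightest probe sets with no human target. PTGS2 fell by 1.90 ± 0.13 in log2 (SE; n = 2 arrays each; limma adjusted p = 5.78e-07), a 3.73-fold fall with a 95% interval of 3.06 to 4.54. Of 14122 genes tested, 33 had a lower log2 change, and 3.41% were called lower by at least 2-fold. The change was between -1.75 and -2.05 when single arrays were left out, and -2.25 with the poly(A) spikes.

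The other PTGS2 probe sets were too dim to be tested. Probe set 11724038_a_at read 6.81 and 7.01 on the mimic arrays, against 11.1 and 14.2 with miR-NC, and 11724036_a_at read 4.66 and 4.13 against 5.07 and 6.13. Neither exceeded the probe sets with no human target on any array, though in both the mimic arrays lay below the control arrays. The groups did not overlap in 76.8% of all tested probe sets either, so this order alone says little. The fall of PTGS2 thus rests on 1 probe set, and the mean over all 3, which takes in the dim ones, was -1.03 (limma adjusted p = 4.6e-05). Adding 16 to every intensity before the logarithm gave -1.38.

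**Figure D1:**
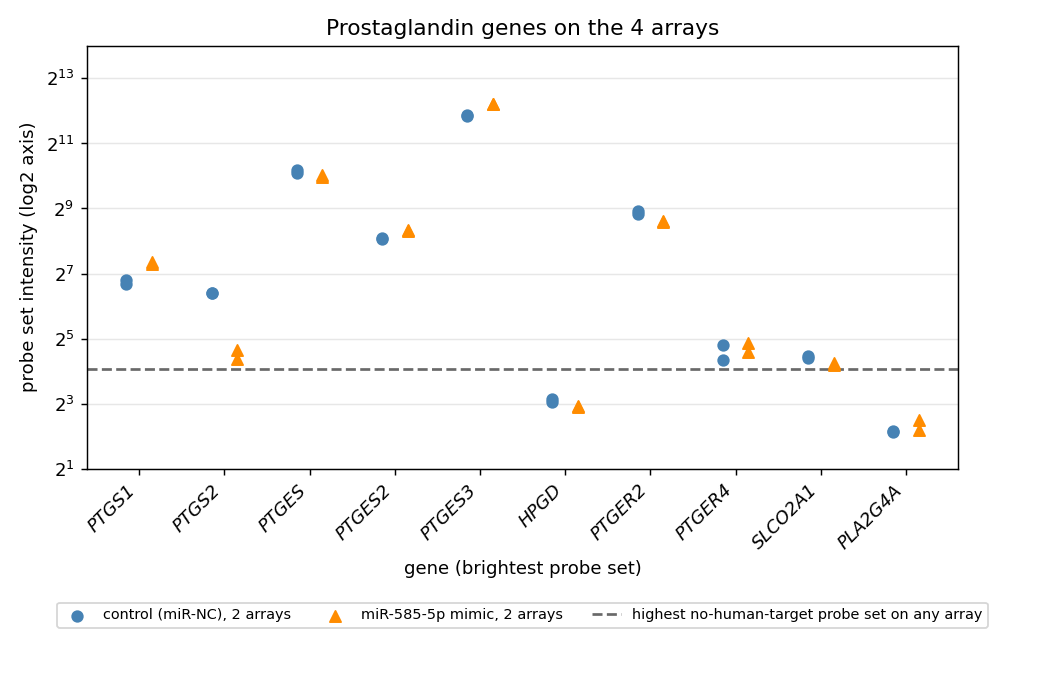
Intensity (log2 axis) of the brightest probe set of each of the 10 prostaglandin genes on the 2 control arrays (circles) and the 2 mimic arrays (triangles), with a dashed line at 16.8, the highest probe set with no human target on any array. PTGS2 drops from 84.9 and 84.3 to 20.5 and 25.1, near the line, while HPGD and PLA2G4A lie under it in both groups.

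The constitutive cyclooxygenase PTGS1 differed in the opposite direction. Its brightest probe set, 11722209_a_at, read 156 and 164 on the mimic arrays, against 103 and 112 with miR-NC. PTGS1 rose by 0.58 ± 0.09 (SE; n = 2 arrays each; limma adjusted p = 2.27e-04), with a 95% interval of 1.31- to 1.72-fold. A second probe set, 11722208_a_at, read 82.3 and 73.4 against 47.2 and 58.9 and rose by 0.56 ± 0.13 (limma adjusted p = 0.0030 over 34505 probe sets). Another, 11749730_a_at, read 25.1 and 22.4 against 20.1 and 21.5 and did not pass (0.19, 95% interval -0.11 to 0.49), and the fourth was at the level of no signal. With the poly(A) spikes the change of PTGS1 was 0.24 and did not pass (limma adjusted p = 0.0902).

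The release of arachidonic acid could not be followed through PLA2G4A, the cytosolic phospholipase. Its only probe set, 11727754_a_at, read 5.61 and 4.54 on the mimic arrays, against 4.46 and 4.39 with miR-NC, all below the probe sets with no human target. PLA2G4A lies beside PTGS2 on chromosome 1 in the RefSeq gene table, with the long noncoding PACERR between them. The nearest tested protein-coding gene on the other side, ODR4, was at 0.04 (limma adjusted p = 0.697).

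The 3 terminal synthases did not move as 1 group. PTGES, the inducible microsomal synthase usually coupled to PTGS2, read 1045 and 997 on the mimic arrays, against 1102 and 1161 with miR-NC in its brightest probe set, 11754526_a_at. The groups did not overlap, and PTGES fell by 0.15 ± 0.05 in log2 (SE; n = 2 arrays each; limma adjusted p = 0.0383). On the deposited scale this small fall is the least secure call among the members. With the poly(A) spikes PTGES was at -0.49 and stayed called lower. The other PTGES probe sets, at 266 and 264 against 294 and 270, and at 169 and 169 against 168 and 168, gave -0.087 and 0.012 and did not pass. With the poly(A) spikes these were at -0.43 and -0.33, both called lower. The mean of the 3 was -0.075, and the call ended when mimic replicate 1 (-0.18), mimic replicate 2 (-0.11) or control replicate 2 (-0.11) was left out.

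PTGES2, a membrane-associated synthase, read 318 and 327 on the mimic arrays, against 267 and 270 with miR-NC. On the deposited scale, though not with the poly(A) spikes (-0.082), it rose by 0.26 ± 0.07 (SE; n = 2 arrays each; limma adjusted p = 0.0067), and its other probe set, at 107 and 108 against 83.1 and 87.0, rose by 0.33 ± 0.09. The groups were apart in both probe sets. The call ended without mimic replicate 2 (0.24, limma adjusted p = 0.0721).

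PTGES3 is the cytosolic synthase, also known as p23, a cochaperone of HSP90. Its brightest probe set, 11743372_s_at, read 4798 and 4713 on the mimic arrays, against 3705 and 3780 with miR-NC. On the deposited scale, though not with the poly(A) spikes (-0.0004, adjusted p = 0.997), this probe set rose by 0.35 ± 0.04 (SE; n = 2 arrays each; limma adjusted p = 2.30e-05). All 4 of its probe sets rose in the test over probe sets, and their sizes differed. Probe set 11753366_x_at read 1239 and 1284 against 722 and 763, a change of 0.77 with a 95% interval of 0.64 to 0.89, which does not meet the 0.26 to 0.43 of the brightest one. The remaining 2 were at 0.61 and 0.75. With the poly(A) spikes these 3 PTGES3 probe sets stayed called higher, 11753366_x_at at 0.42 (limma adjusted p = 7.52e-05), 11747662_x_at at 0.27 (adjusted p = 0.0122) and 11751818_x_at at 0.40 (adjusted p = 7.88e-04). Each of the 4 carries an _s_ or _x_ suffix, by which the maker marks probes that can match other transcripts, so no value without such probe sets could be had.

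**Figure D2:**
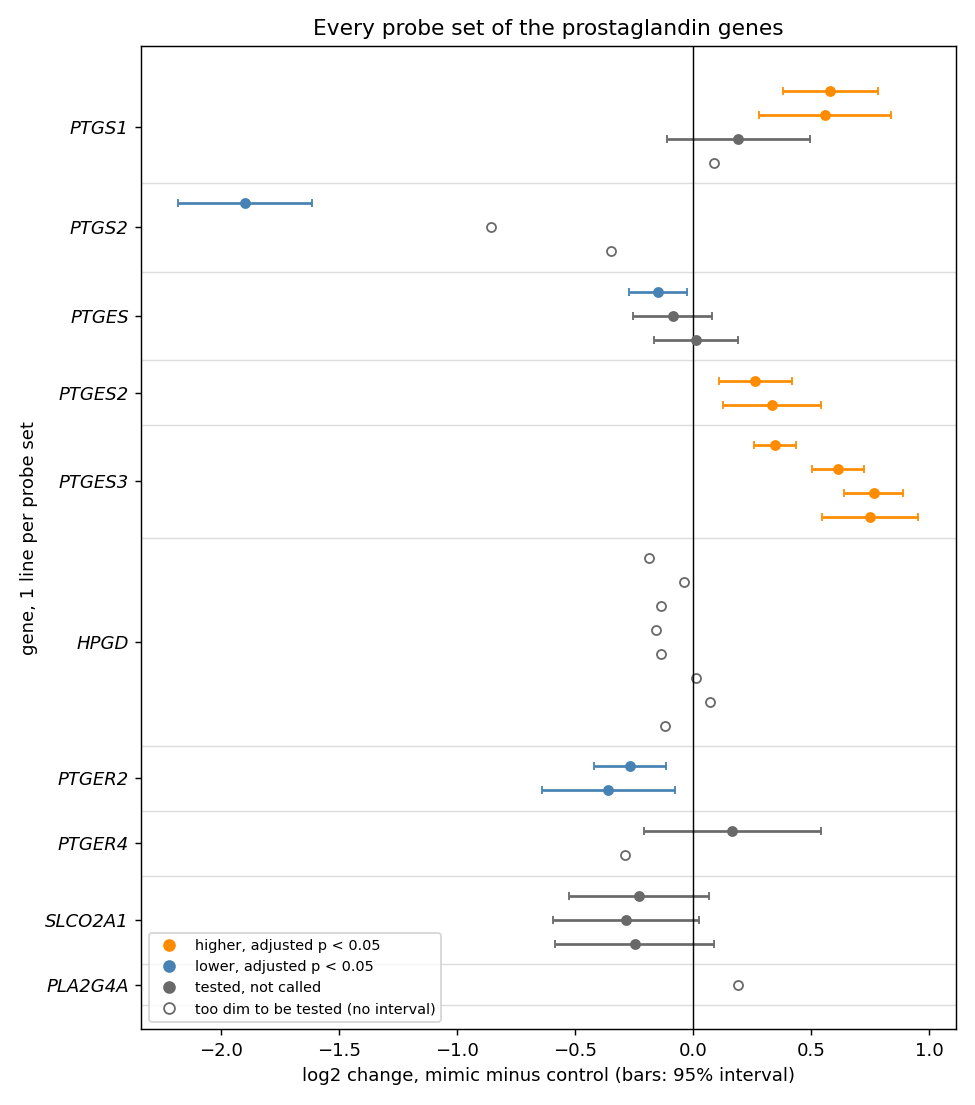
Log2 change, mimic minus control, of each of the 32 probe sets, with 95% intervals for the 19 that were tested and open circles without intervals for the 13 that were too dim. Orange marks 8 probe sets called higher, blue 4 called lower, and the lowest value, -1.90, is the 1 tested probe set of PTGS2.

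Of the receptors, PTGER2, which encodes EP2, was detected well. Its brightest probe set, 11732550_at, read 396 and 385 on the mimic arrays, against 452 and 490 with miR-NC. PTGER2 fell by 0.27 ± 0.07 in log2 (SE; n = 2 arrays each; limma adjusted p = 0.0057). The second probe set read 124 and 91.9 against 130 and 144 and fell by 0.36 ± 0.13 (limma adjusted p = 0.0352 over probe sets). The groups did not overlap in either, and the call ended without mimic replicate 2 (-0.25, limma adjusted p = 0.0729).

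PTGER4, which encodes EP4, was dim. Its brighter probe set read 24.0 and 29.4 on the mimic arrays, against 20.2 and 27.7 with miR-NC, so the groups overlapped. The change was 0.17, or -0.18 with the poly(A) spikes, with a 95% interval of -0.22 to 0.55 (limma adjusted p = 0.440). Its other probe set was at the level of no signal on all 4 arrays.

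Uptake and breakdown were at the edge of detection or under it. SLCO2A1, the prostaglandin transporter, read 18.9 and 18.1 on the mimic arrays, against 22.2 and 21.3 with miR-NC. All 3 of its probe sets lay lower on both mimic arrays than on both control arrays, at -0.23, -0.28 and -0.25. None passed (limma adjusted p = 0.170 over genes for the brightest), and 76.8% of all tested probe sets had groups that did not overlap. HPGD, the dehydrogenase that inactivates prostaglandin E2, read between 2.85 and 8.78 over 8 probe sets and 4 arrays. None of these values reached the probe sets with no human target, so neither a level nor a change of HPGD was detectable here. In bulk RNA, fewer cells expressing a gene and less RNA per cell cannot be told apart.

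Among the 10 genes 8 were bright enough to be tested, 3 rose (PTGS1, PTGES2, PTGES3), 3 fell (PTGS2, PTGES, PTGER2) and 2 did not pass on the deposited scale, while with the poly(A) spikes 0 rose and 4 fell (PTGS2, PTGES, PTGER2 and SLCO2A1). The share called over all 14122 genes was 55.0% on the deposited scale, with 28.1% higher and 26.9% lower, and 11.4% were higher and 58.1% lower with the poly(A) spikes. The counts of members are near these shares on both scales and say little about the genes as a group. The median change of the 8 was 0.0091 and that of all genes -0.06. Of the 32 probe sets 19 were tested, 8 rose and 4 fell, against 51.0% of 34505 probe sets called, 27.0% higher and 23.9% lower. With the poly(A) spikes 3 of them rose and 9 fell, against 11.4% higher and 56.5% lower over all probe sets. The groups did not overlap in 7 of the 8 genes, against 79.4% of all genes, nor in 18 of the 19 probe sets, against 76.8%. PTGS2 was the only tested member whose change exceeded 2-fold, and the other 7 lay between -0.27 and 0.58. Over all genes 4.76% were called higher by at least 2-fold. Over all probe sets 2.94% were called lower and 4.76% higher by that much.

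**Figure D3:**
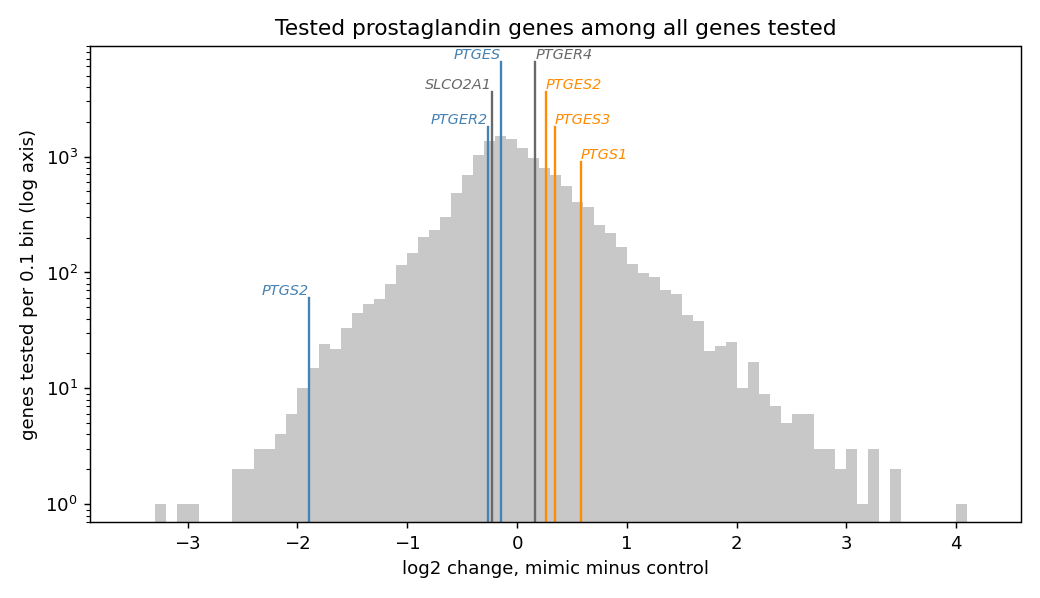
Number of genes (log axis) by log2 change for the 14122 genes tested, with lines at the 8 tested prostaglandin genes (orange called higher, blue lower, grey not called). PTGS2 at -1.90 stands in the left tail, with 33 genes lower, while the other 7 lie between -0.27 and 0.58.

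**Figure D4:**
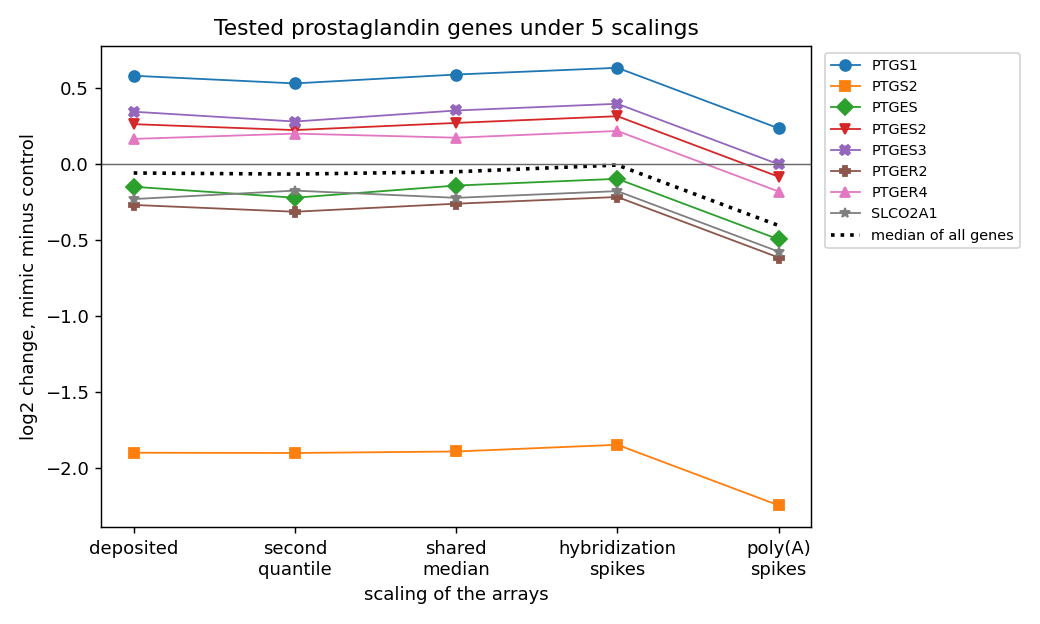
Log2 change of the 8 tested prostaglandin genes under 5 scalings of the arrays, with the median of all genes as a dotted line. Under the poly(A) spikes all values drop by 0.35, which takes PTGES2, PTGES3 and PTGER4 to or below 0 and leaves PTGS1 at 0.24 and PTGS2 at -2.25.

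The pattern of PTGS2 over the 4 arrays was set beside that of every other tested gene, by the Euclidean distance between log2 values after each gene's mean was subtracted. The nearest 3 were MMP12, THSD4 and PRICKLE1, at distances of 0.18, 0.18 and 0.21. MMP12, a macrophage elastase of the metalloproteinase family, read 7.41 and 8.15 on the mimic arrays, against 32.3 and 28.3 with miR-NC, at least 2.07-fold lower with the mimic group at the level of no signal. THSD4, a thrombospondin-repeat matrix protein, read 46.9 and 51.3 against 202 and 200.3, and PRICKLE1, of planar cell polarity, 33.0 and 33.3 against 121 and 128. With 4 arrays in 2 groups the distance mostly matches the size of the change.

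Several genes that act before the cyclooxygenases were also measured. Of 21 tested genes of arachidonate release and recycling, 3 rose and 6 fell, with a median change of -0.21, and with the poly(A) spikes 0 rose and 14 fell. MGLL, the lipase that frees arachidonic acid from 2-arachidonoylglycerol, read 223.5 and 221 on the mimic arrays, against 713 and 735 with miR-NC. It fell by 1.70 ± 0.06 (SE; n = 2 arrays each; limma adjusted p = 1.02e-08), and its 5 other probe sets above the level of no signal all fell. The lysosomal phospholipase PLA2G15 fell by 1.10 ± 0.12, though its mean over probe sets was -0.46, and the secreted PLA2G10 was at -0.40 ± 0.11. ACSL4, which attaches arachidonate to coenzyme A, rose by 0.43 ± 0.11. It was at 0.081 with the poly(A) spikes and 0.28 with the mean of its probe sets. Without cross-hybridizing probe sets it was at 0.66, in a probe set too dim to be tested. PLA2G10 and ACSL4 each missed the threshold without either mimic array.

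Of 13 tested genes of other prostanoid synthesis, export and breakdown, 6 rose and 1 fell on the deposited scale, with a median of 0.12, and 6 rose and 6 fell with the poly(A) spikes. CBR3, a carbonyl reductase, read 106 and 106 on the mimic arrays, against 37.1 and 29.4 with miR-NC and rose by 1.68 ± 0.13 (SE; n = 2 arrays each; limma adjusted p = 1.22e-06). ABCC4, an efflux pump that exports prostaglandin E2, read 349.6 and 364 against 153 and 170.1 and rose by 1.15 ± 0.08, or 0.61 with the mean of its probe sets and 0.47 without cross-hybridizing ones. PTGR1, a reductase of prostaglandin and leukotriene metabolites, read 375 and 379 against 189 and 199 and rose by 0.96 ± 0.07. AKR1C1, an aldo-keto reductase, rose by 1.38 ± 0.17. The fallen gene was PTGR3, another prostaglandin reductase, at -0.84 ± 0.10, named here after its value was seen. With the poly(A) spikes CBR3 was at 1.34, ABCC4 at 0.80 and PTGR1 at 0.62.

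Of 7 tested genes of the other prostanoid receptors, 0 rose and 2 fell, with a median of -0.30, and with the poly(A) spikes 6 fell. Both that fell are nuclear receptors for fatty acid ligands: PPARG read 95.2 and 91.5 against 157 and 183, a fall of 0.86 ± 0.10, and PPARD fell by 0.91 ± 0.14, or -0.43 with the mean of its probe sets. The 5 membrane receptors that were tested did not pass, at -0.33 to -0.03. In the lipoxygenase branch, which shares arachidonic acid with the cyclooxygenases, 2 of 11 tested genes rose and 2 fell, or 1 and 7 with the poly(A) spikes. The epidermal lipoxygenase ALOX12B rose by 0.82 ± 0.11, and its partner in skin barrier formation, ALOXE3, was at -0.42 ± 0.13. The leukotriene hydrolase LTA4H fell by 0.33 ± 0.06. EPHX2 was at 0.22 ± 0.08 on the deposited scale and -0.13 with the poly(A) spikes, and its call was lost with the mean of its probe sets (0.061, adjusted p = 0.500) and a second quantile normalization (0.17, adjusted p = 0.0964), and without the filter, the trend or the moderation. ALOXE3 missed the threshold without mimic replicate 2 (-0.32) or control replicate 1 (-0.31), and EPHX2 when mimic replicate 1 (0.16), mimic replicate 2 (0.28) or control replicate 1 (0.19) was left out.

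Downstream of EP2 and EP4, 5 of 22 tested genes of coupling to cyclic AMP rose and 8 fell, with a median of -0.15, and 2 rose and 14 fell with the poly(A) spikes. The catalytic kinase subunit PRKACA read 928 and 898 on the mimic arrays, against 2373 and 2381 with miR-NC, a fall of 1.38 ± 0.05 that rests on 1 probe set of the _s_ kind. Without such probe sets it was at -0.23 and did not pass, and the mean of its probe sets was -0.60. The coactivator CREBBP fell by 0.99 ± 0.08, as did its 3 other probe sets above the level of no signal, and the adenylyl cyclase ADCY9 fell by 0.65 ± 0.09, or -0.34 with the mean of its probe sets. ADCY1, another adenylyl cyclase, rose by 0.97 ± 0.15. Only 1 of its control arrays was above the probe sets with no human target, so the size of this rise is uncertain. Of 12 tested genes that cyclic AMP induces, 4 rose and 1 fell, with a median of -0.017, and with the poly(A) spikes 2 rose and 7 fell. The phosphatase DUSP1 read 3235 and 2991 against 795 and 886, a rise of 1.89 ± 0.06. Its 3 other probe sets above the level of no signal shared this rise. NR4A2 fell by 0.85 ± 0.18, or -0.44 with the mean of its probe sets. Its other probe set above the level of no signal did not pass. In the brightest probe set of NR4A2 only 1 mimic array was above the probe sets with no human target. The size of its fall is therefore uncertain. CREM and VEGFA were at 0.68 and 0.35 in their brightest probe sets but -0.26 and -0.014 without cross-hybridizing ones, and 0.22 and 0.17, neither past the threshold, with the mean.

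Regulators of PTGS2 itself were mixed. Of 13 tested proteins that bind AU-rich elements, 4 rose and 1 fell, with a median of 0.035, and with the poly(A) spikes 3 rose and 8 fell. ZFP36L2, a decay factor of the tristetraprolin family, read 1293 and 1249 against 554 and 582 and rose by 1.16 ± 0.06 (SE; n = 2 arrays each; limma adjusted p = 5.26e-08), and its 3 other probe sets above the level of no signal rose. ELAVL1 (HuR), which stabilizes such messengers, rose by 0.82 ± 0.07, and RBM3 by 0.84 ± 0.07, or 0.35 with the mean of its probe sets. Tristetraprolin itself, ZFP36, read 1505 and 1531 against 1498 and 1573 (limma adjusted p = 0.790 on the deposited scale, chosen after its values were seen). CELF1 was at -0.99 ± 0.06 in its brightest probe set and 0.052 with the mean, 1 of 2 others having risen.

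Among 20 tested transcription factors and coactivators listed for the PTGS2 promoter, 8 rose and 5 fell, with a median of 0.14. With the poly(A) spikes 6 rose and 10 fell. The calcium-responsive factor NFATC1 rose by 1.03 ± 0.13, or 0.56 with the mean of its probe sets, and ATF2 by 0.79 ± 0.09, or 0.19 with the mean, which did not pass. TCF4, an E-box factor, was at least 1.41-fold higher, with the control group at the level of no signal. The mean of its probe sets (0.13) was too dim to be tested. This gene is not TCF7L2, the factor also called TCF-4, and its tie to this promoter is not shown here. ATF3 fell by 1.05 ± 0.09, or -0.45 with the mean of its probe sets. The factors of the group that are known for the marked motifs did not go 1 way. For the C/EBP site, CEBPB rose by 0.75 ± 0.07 and CEBPD was at 0.024 (limma adjusted p = 0.668). For the E-box, USF1 fell by 0.32 ± 0.11 (limma adjusted p = 0.0303) and USF2 fell by 0.71 ± 0.07 (limma adjusted p = 6.73e-06). For the NF-kB site, NFKB1 (0.0018, limma adjusted p = 0.981) and RELA (-0.15, adjusted p = 0.0889) did not pass. Nor did CREB1 (-0.25, adjusted p = 0.0537), which like ATF2 and ATF3 can bind the cyclic AMP response element. JUN, also of the group, rose by 0.59 ± 0.07 (limma adjusted p = 2.50e-05), and FOS was at 0.028 (adjusted p = 0.836). CEBPB, CEBPD, USF1, USF2, NFKB1, RELA and CREB1 are named for their motifs after their values were seen. JUN and FOS were also named after their values were seen. The values of the factors named for motifs, and of JUN and FOS, are on the deposited scale. The poly(A) spikes lower each of them by 0.35. Messenger levels do not measure the activity of such factors. Over these 8 groups, 58 genes were called, 32 higher and 26 lower, each gene counted once. With the poly(A) spikes 20 were higher and 69 lower. Of all 14122 genes tested, 28.1% were higher and 26.9% lower, or 11.4% and 58.1% with the poly(A) spikes. The counts of each group above are to be read beside these shares.

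**Figure D5:**
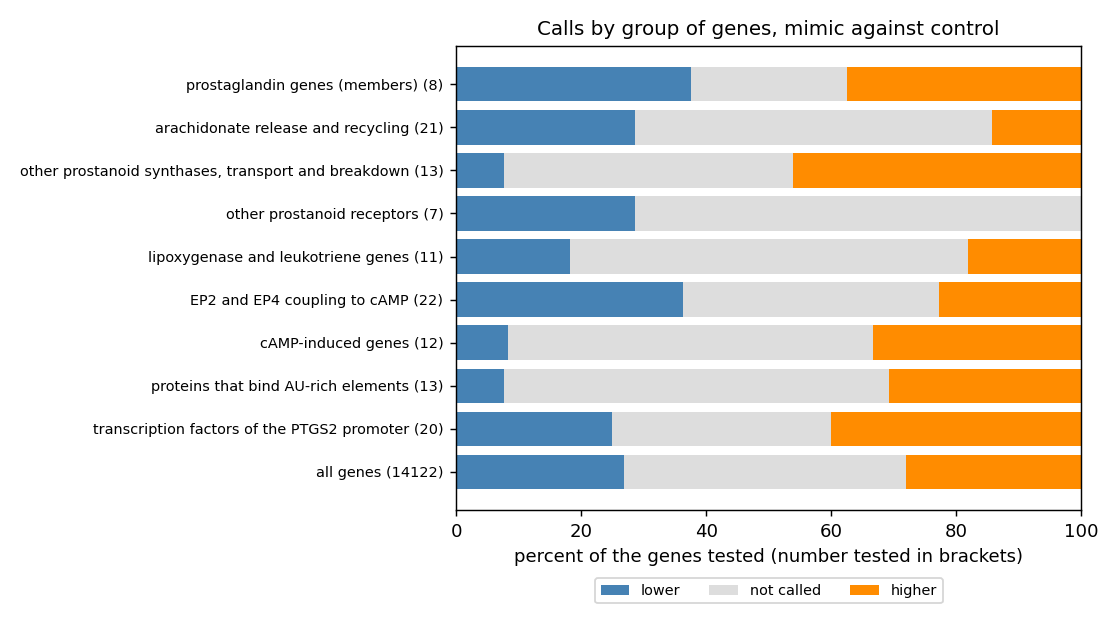
Percent of tested genes called lower (blue), not called (grey) and higher (orange) in the 8 tested prostaglandin genes, in 8 groups of related genes and in all genes, with the number tested in brackets. The group of other synthases, transport and breakdown has 6 of 13 higher and 1 lower, the other prostanoid receptors 0 of 7 higher and 2 lower, and all genes 28.1% higher and 26.9% lower, all on the deposited scale. With the poly(A) spikes the first of these groups has 6 higher and 6 lower.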

How the data were processed

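Total RNA of 4 SCC-9 samples was measured on Affymetrix PrimeView arrays. The authors deposited probe set intensity values, and per the submitters' processing notes these were made with RMA (version not given in the sources used here), which corrects background and normalizes between arrays. The values run from 2.09 to 17329, so they were read as linear and their log2 was taken. Names came from the platform annotation (44988 probe sets with 1 symbol, 1832 with several). In all, 0 symbols changed against the GRCh38.p14 gene table.

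A gene was read from its brightest probe set and tested where its geometric mean passed intensity 12.0, percentile 30 of the non-control probe sets. A second fit took every probe set above that level. Models were fitted in limma (version 3.58.1, under R 4.3.3) by lmFit, followed by eBayes with trend, as mimic minus control, two-sided, with Benjamini-Hochberg adjustment over all genes (14122) or probe sets (34505) tested and 0.05 as threshold. The arrays left 2 residual degrees of freedom, to which the gene-level prior brought 8.35. Errors are SEs. On simulated data with 200 of 14122 genes changed, 9 of 158 calls were on unchanged genes, and 96% of genes changed 2-fold were recovered. Far fewer genes were changed there than were called in these data, and no shift shared by an array was simulated. The simulation therefore does not give the rate of false calls here. Where a group stayed under the probe sets with no human target, the fold is a bound, set against the higher of those and the measured value.

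The members, gene groups and alternatives were chosen with earlier results of these data known. Named beside the members were up to 4 genes of each group with the largest changes past the threshold and groups apart, and the 3 nearest to PTGS2. Alternatives changed the scaling, the filter, a pseudocount, the moderation, the choice of probe set and the replicate block, or left out each array. No protein or transcript sequences were used here, and genes absent from the annotation were not analysed here. The number of arrays limits the precision.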

Additional observations from a re-analysis of the deposited data

How the results depend on the processing

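The fall of PTGS2 kept its direction and its call under all 18 alternatives, from -2.25 to -1.03 on the log2 scale. PTGS1 kept its direction under all 18 and its call under 16, PTGER2 likewise under 18 and 16, PTGES under 18 and 10. Called member genes numbered 6, and 3 to 6 with single arrays left out (3 without mimic replicate 2). Called member probe sets numbered 12, and 7 to 12 with single arrays left out (7 without mimic replicate 1 and also without mimic replicate 2). With no moderation of the spread, which leaves 2 degrees of freedom, calls fell to 3 member genes, 4 member probe sets, 19 other pathway genes and 2911 genes in all, against 7768. The poly(A) spikes raised the other pathway genes called from 58 to 89, and the share of higher calls over all genes went from 51.1% to 16.4%. As stated above, p-values and calls with the spikes are not comparable with the main ones. Among the tested members and the 33 other named genes, the spikes turned PTGES2 (-0.082), PTGES3 (-0.0004), PTGER4 (-0.18) and EPHX2 (-0.13). Among the tested member probe sets they turned 11749730_a_at of PTGS1 (-0.15), 11747187_x_at of PTGES (-0.33) and 11741445_a_at of PTGES2 (-0.011). Also turned were 11754934_a_at of PTGES2 (-0.082), 11743372_s_at of PTGES3 (-0.0004) and 11725793_s_at of PTGER4 (-0.18). PLA2G4A, too dim to be tested, went to -0.16. Genes named after their values were seen are not in this list, and any of their rises below 0.35 turns too. A second quantile normalization turned 11747187_x_at to -0.034. PTGER4, never called, was also at -0.062 with the mean of its probe sets, and its probe set 11725793_s_at ranged from -0.063 (without control replicate 1) to 0.40 (without control replicate 2). The mean of all probe sets turned CELF1 (0.052), and leaving out cross-hybridizing ones CREM (-0.26) and VEGFA (-0.014). For the 33 other named genes, 541 of 582 values kept direction and call. Replicate numbers do not pair the arrays by any label. The deviations of same-numbered arrays correlated at 0.084, and with the number as a replicate block 6 member genes, 12 member probe sets, 66 other pathway genes and 8253 genes were called. Apart from the spikes, the cause of these moves was not tested. HPGD, PLA2G4A, PTGER4 and SLCO2A1 are limited by signal near or under that of probe sets with no human target.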
